A study of Mus musculus with 2 samples.

Results

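Ubiquitin-specific proteases are encoded by the Usp genes. Members were taken by symbol, as every row of the count tables whose name is Usp followed by a number and at most a letter suffix, with Usp15, Usp18, Usp29 and Usp30 left out. This gave 52 of 23282 rows. The rule also takes Usp6nl, whose product is a GTPase-activating protein for Rab proteins and not a protease, and it was kept and marked. Of the 52 members, 40 had at least 40 counts in both libraries together and are called measured, 6 had fewer and 6 had none.

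The libraries came from 3T3-L1, an established mouse line of fibroblasts able to become fat cells in culture, which the labels describe as adipocytes. The control siRNA group is 1 library from cells given a control siRNA, and the Pink1 siRNA group is 1 library from cells given an siRNA against Pink1, the kinase that marks damaged mitochondria by phosphorylating ubiquitin. No other treatment, genotype or time is stated in the labels, and the line is a single one. Each group being a single library, no difference below could be tested or checked against replicates, and the intervals cover counting error only.

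Ubiquitin is joined to proteins as single units or chains, and deubiquitinases cut it off again. The ubiquitin-specific proteases are the largest family of these enzymes. They are cysteine proteases that share a catalytic domain and differ in the domains around it, which set where each acts: on histones, at DNA lesions, at the proteasome, on endosomes or on signalling proteins. Some members regulate Wnt and TGF-beta signalling, pathways that restrain the formation of fat cells.

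The libraries held 13803174 (control) and 14214768 (Pink1 siRNA) counts. Levels are given as CPM, counts scaled to libraries of one effective size. Pink1 had 511 and 351 counts, or 36.5 and 25.1 CPM, a ratio of 0.687 (95% counting interval 0.598 to 0.788). The targeted transcript was thus 31.3% lower in the library labelled as its knockdown. That is 1.46-fold, short of both the 1.5-fold and the 2-fold sizes used for the Usp genes below. With genes split into twentieths by mean level, 23 of the 583 in the part holding Pink1 lay at least this far below 1. Of 12 adipocyte markers 11 were measured, with Lep at 0 in both libraries, and the summed level of the 12 was 2603 and 2814 CPM, most of it from Fabp4 (1047 and 1196 CPM) and Lpl (817 and 815 CPM). Single markers differed in both directions, with Plin1 at 19.6 and 11.9 CPM and Slc2a4 at 3.50 and 1.78, but Retn at 26.8 and 40.1 and Cd36 at 32.9 and 44.3. The 7 preadipocyte or fibroblast markers summed to 24300 and 25158 CPM, so transcripts of both kinds were present, and their part in the results below was not tested. Macrophage markers summed to 3.57 and 2.43 CPM, with Adgre1 and Itgam at 0, and endothelial markers to 0.571 and 0.50 CPM, with Kdr and Cdh5 at 0. In such bulk RNA, fewer cells of a type and less RNA per cell cannot be told apart.

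No measured Usp gene differed by 2-fold. The rule of size asked for a ratio, Pink1 siRNA over control, of 2 or more in one direction or the other, with a counting interval that does not include 1, and 0 of 40 members met it. Over all 11660 measured genes the share was 4.02% (1.63% higher and 2.39% lower). At a ratio of 1.5 with the same interval, 3 members were higher and 0 lower, or 7.5% of the members against 12.1% of all measured genes (5.43% higher and 6.64% lower). The 3 were Usp6nl, Usp27x and Usp28, all weakly expressed. The median log2 ratio of the 40 members was -0.03, against 0.00 over all measured genes, with 16 ratios above 1 and 24 below. Counting intervals lay above 1 for 6 members and below 1 for 11, or 42.5% of members, while the interval left out 1 for 51.2% of all measured genes (26.2% above and 24.9% below), so differences beyond counting error were common in these 2 libraries and the counting interval alone separates little.

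As a whole the family took 0.232% of the control counts (32081 counts, exact binomial 95% interval 0.23 to 0.235%) and 0.22% of the Pink1 siRNA counts (31337 counts, 0.218 to 0.223%). After scaling, the summed level was 2290 and 2237 CPM, a ratio of 0.977. The scaled sum therefore differed by less than the raw shares did, and the shares are counted before the libraries are scaled to each other.

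Levels spanned from Usp34 at 420 CPM to Usp49 at 3.00 CPM, as means of the 2 libraries. Usp34, a very large protease that acts on axin in Wnt signalling, had 5904 counts in the control library and 5853 in the Pink1 siRNA library, 18.4% and 18.7% of all family counts. It lies on chromosome 11 from 23306895 to 23490560 (mm10, plus strand), and its end overlaps that of Ahsa2, on the other strand, by 2679 bases (2435 and 2211 counts). Whether strand was used in counting is not given in the sources used here, so reads of the 2 genes may be mixed. Next in CPM came Usp7, the protease of p53 and its ligase Mdm2, at 179 and 168 CPM, then Usp8, an endosomal protease, at 158 and 173 CPM. Usp22, the histone protease of the SAGA coactivator, was at 137 and 136 CPM, and Usp47, a relative of Usp7 linked to base excision repair, at 112 and 115 CPM. Together these 5 made up 44.0% and 45.1% of the family's counts, so a small group of genes dominated it in both libraries alike.

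The labels name a QuantSeq kit, which reads transcript ends, but the catalogue number they give may belong to another kit, so levels of different genes were compared both as CPM and per length. Across the 40 members the Spearman rho of mean CPM with the length of the longest annotated transcript was -0.13 (Pearson r on log2 scales -0.05), and across 11204 measured genes with an annotation it was 0.08 (r = 0.08), given as descriptions over genes that share the same libraries. Per kilobase of transcript, the order at the top was Usp8 at 39.8 CPM per kb, Usp7 at 36.5, Usp34 at 34.4, Usp22 at 30.8 and Usp1 at 28.4. Usp34 was thus first by CPM and at rank 3 per kilobase, and Usp9x moved from rank 7 to rank 18. At the low end, the measured members with the lowest mean CPM were Usp49 (3.00), Usp27x (5.50), Usp6nl (6.07), Usp31 (8.67) and Usp28 (9.25), and of these Usp49, Usp6nl, Usp31 and Usp27x were also the lowest 4 of the 40 per kilobase.

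**Figure D1:**
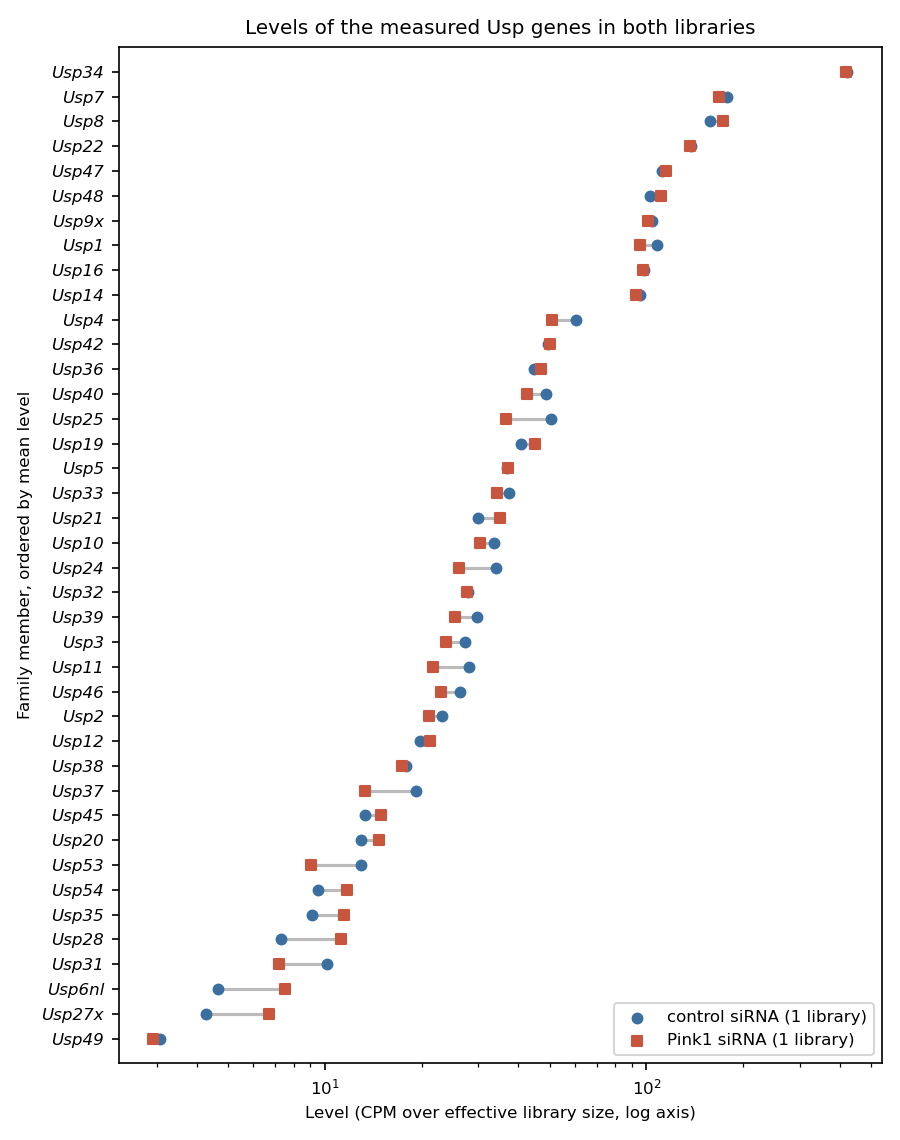
Levels of the 40 measured Usp genes as CPM on a log axis, 1 point per library (circles, control siRNA; squares, Pink1 siRNA), ordered by mean level from Usp49 at the bottom to Usp34 at the top. The paired points nearly coincide for the abundant members, and the wider gaps belong to members of low level such as Usp6nl, Usp27x and Usp28.

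The differences were largest among the members of lowest level. None of the 35 members with a mean of at least 10 CPM had a ratio of 1.5 or more either way, against 5.11% of the 8768 genes of such levels. Among the 8 members at 100 CPM or more, log2 ratios ran from -0.17 to 0.13, and their median size regardless of sign was 0.07, against 0.14 over 1913 genes of that level. For the 3 members between 50 and 100 CPM it was 0.04, against 0.15 over 1923 genes. For the 24 members between 10 and 50 CPM the median size was 0.19, against 0.21 for 4932 genes. Below 10 CPM lay 5 members, and 3 of them were past 1.5-fold, where 37.0% of the 2892 genes of that level were. All 3 members past 1.5-fold thus came from the level at which such ratios were common.

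**Figure D2:**
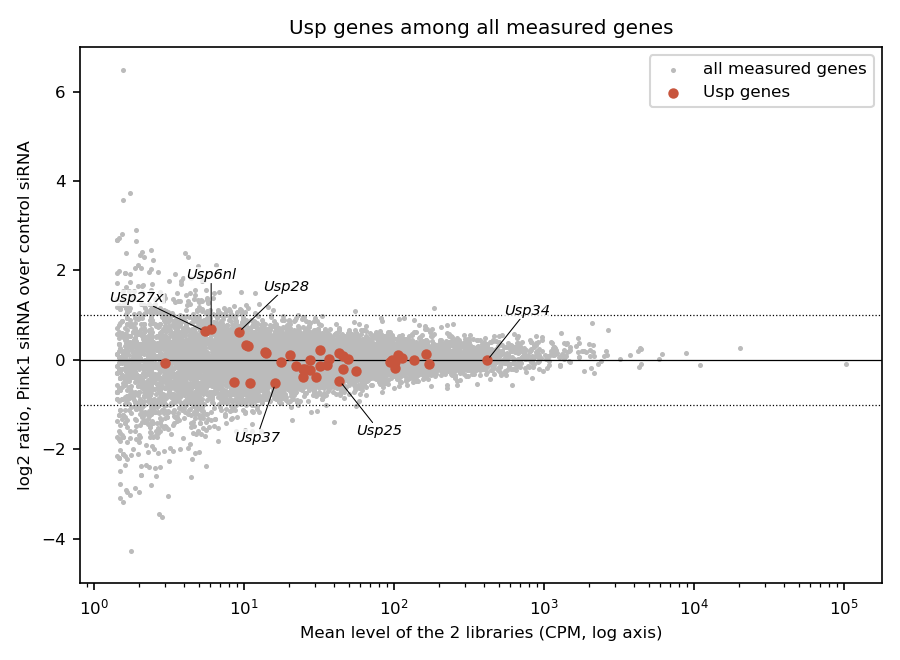
Log2 ratio, Pink1 siRNA over control siRNA, against the mean level of the 2 libraries (CPM, log axis) for all 11660 measured genes (grey) and the 40 measured Usp genes (red), with dotted lines at 2-fold. Every Usp gene lies inside the dotted lines, between -0.52 for Usp37 and 0.69 for Usp6nl, and the grey cloud widens toward low levels.

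Among the proteases of genome repair, cell cycle and p53 control, all 9 were measured, with 4 ratios above 1, 5 below and a median log2 ratio of -0.09. This group held the lowest ratio of the family and, apart from Usp27x and the non-protease Usp6nl, the highest. Usp28, which binds the repair protein Trp53bp1 and stabilises Myc, had 102 counts in the control library and 157 in the Pink1 siRNA library (7.28 and 11.2 CPM). Its ratio was 1.54 (1.19 to 1.99), and 55 of the 583 genes in its twentieth of the genes by level had a ratio as high or higher. The gene lies on chromosome 9 from 48985375 to 49042517 (plus strand). Usp37, which removes ubiquitin from cyclin A and replication proteins, had 269 and 187 counts (19.2 and 13.4 CPM), a ratio of 0.695 (0.574 to 0.841), with 49 of 583 genes of its level as low or lower. It lies on chromosome 1 from 74435511 to 74544284 (minus strand) and overlaps Plcd4 (20 and 26 counts) and Vil1 (34 and 10 counts), both on the other strand. The large protease Usp24 had 478 and 367 counts, a ratio of 0.768 (0.668 to 0.882).

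The rest of that group stayed closer to 1. Usp1, which with its partner Wdr48 deubiquitinates Fancd2 and Pcna, had 1509 and 1338 counts, a ratio of 0.887 (0.823 to 0.955). Usp7 had 2501 and 2352 counts, a ratio of 0.94 (0.889 to 0.995). Usp48, a nuclear histone H2A protease, had 1436 and 1559 counts, a ratio of 1.09 (1.01 to 1.17). For these 3 abundant genes the interval left out 1 although the difference was small, and 97, 166 and 185 of 583 genes of like level lay as far out on the same side. Usp10, which acts on p53 and with G3bp1, had 472 and 426 counts, Usp45, a partner of the Ercc1 nuclease, 187 and 209, and Usp47 1564 and 1612. Their intervals all included 1, and Usp45 overlaps Tstd3 by 57 bases (331 and 287 counts).

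Among proteases of histone ubiquitin, 8 of the 10 listed were measured, with 4 ratios on either side of 1 and a median log2 ratio of 0.01. Of the 8, 5 were within 1.1-fold, against 45% of all measured members and 34.6% of all measured genes. The others were Usp27x, Usp21 and Usp3. Usp27x, an X-linked relative of Usp22 that uses the same SAGA cofactors, had 60 and 94 counts (4.28 and 6.71 CPM), a ratio of 1.57 (1.12 to 2.204), and 84 of 583 genes of its level were as high or higher. Its position is chromosome X from 7371276 to 7375830 (minus strand). Usp22 itself had 1923 and 1909 counts (ratio 0.993, 0.931 to 1.06), and the other relative, Usp51, had no count in either library. The 3 genes are close copies in their coding parts, so reads could be shared where they match. Usp21, a histone H2A protease, had 418 and 491 counts, a ratio of 1.17 (1.03 to 1.34).

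The other chromatin members had intervals that included 1. Usp3, another H2A protease, had 383 and 333 counts, and Usp16, which acts on H2A in mitosis, 1381 and 1368. Usp36 of the nucleolus had 625 and 659 counts, and its relative Usp42 694 and 704. Usp49, an H2B protease, had 43 and 41 counts, a ratio of 0.954 whose interval ran from 0.606 to 1.498. It was the least expressed measured member, and the depth could not show a difference below that width. Usp49 overlaps Tomm6 by 93 bases (2712 and 3204 counts) and Usp16 overlaps Cct8 by 192 bases (5723 and 5420 counts). The mitotic checkpoint protease Usp44 had 5 and 2 counts.

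All 5 proteases listed for Wnt and TGF-beta signalling had a ratio below 1, with a median log2 ratio of -0.25, while 48.9% of all measured genes had a ratio below 1. The list puts each member in a single role group and was chosen with earlier results of these data known. It therefore does not describe the pathways as a whole. Intervals lay below 1 for 3 of the 5, against 24.9% of all measured genes, and none was past 1.5-fold. Usp25, which stabilises the tankyrases of the Wnt pathway, had 707 and 512 counts (50.5 and 36.6 CPM), a ratio of 0.724 (0.645 to 0.813). It lies on chromosome 16 from 77013706 to 77116780 (plus strand), and 29 of 583 genes of its level were as low or lower, the smallest such share among the members (4.97%). The X-linked Usp11 had 393 and 303 counts, a ratio of 0.771 (0.662 to 0.898), and Usp4, which removes ubiquitin from the TGF-beta receptor Tgfbr1, 848 and 712 counts, a ratio of 0.84 (0.759 to 0.929). Usp9x, which acts on Smad4 and Mcl1, had 1455 and 1417 counts, a ratio of 0.974 (0.905 to 1.05), and Usp34 a ratio of 0.991 (0.956 to 1.03). The 2 most abundant of the 5 were therefore nearly level, and the lower ratios came from the other three.

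Endosomal, membrane and endoplasmic reticulum proteases, 7 of 7 measured, had 4 ratios above 1, 3 below and a median log2 ratio of 0.11. Usp8, which sorts receptors with the ESCRT proteins Stam and Stam2 and also removes ubiquitin from Parkin, had 2209 and 2417 counts, a ratio of 1.09 (1.03 to 1.16), with 181 of 583 genes of its level as high or higher. It was the 1 member of the group whose interval left out 1. The membrane-anchored Usp19 had 570 and 632 counts, and Usp20, which acts on beta-adrenergic receptors, 182 and 206. Its relative Usp33 had 524 and 482 counts and Usp32, a Golgi and endosome protease, 390 and 389. The Wdr48-dependent pair Usp12 and Usp46 had 276 and 298 counts and 370 and 321 counts. Log2 ratios in the group ran from -0.20 to 0.18.

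Of the groups with more than 1 measured member, the proteases of the proteasome and of free chains were the most even. Usp14, which trims ubiquitin on the proteasome, had 1337 and 1300 counts, a ratio of 0.972 (0.90 to 1.05). It overlaps Thoc1 by 2424 bases on the other strand (866 and 868 counts). Usp5, which takes apart unanchored ubiquitin chains, had 516 and 520 counts, a ratio of 1.01 (0.891 to 1.14). Its relative Usp13 had 0 and 1 counts, under the 3 counts that a count of 0 allows (0.214 CPM). Usp35, which has been placed on mitochondria, had 128 and 161 counts (9.14 and 11.5 CPM), a ratio of 1.26 (0.991 to 1.60), with 110 of 583 genes of its level as high or higher. Usp2, a protease of the circadian clock, had 325 and 296 counts, a ratio of 0.911 (0.775 to 1.07).

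Members listed as not proteases or as lacking a full catalytic site had the widest range. Whether each lacks protease activity was not checked here. Of the 5, 4 were measured, with log2 ratios from -0.51 to 0.69. Usp6nl had 65 and 105 counts (4.64 and 7.50 CPM), the highest ratio of all members at 1.62 (1.17 to 2.24). It lies on chromosome 2 from 6322667 to 6446390 (plus strand), and 68 of 583 genes of its level were as high or higher. Usp53, of cell junctions, had 181 and 127 counts (12.9 and 9.07 CPM), a ratio of 0.702 (0.555 to 0.885), with 84 of 583 genes as low or lower. The gene spans chromosome 3 from 122931493 to 122984510 (minus strand). Its relative Usp54 had 133 and 164 counts, a ratio of 1.23 (0.975 to 1.56). Usp39, a spliceosome protein, had 416 and 356 counts, a ratio of 0.856 (0.741 to 0.988). Usp50, which overlaps Usp8 by 50202 bases on the other strand, had no count.

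Of 4 less studied members 3 were measured, all with a ratio below 1, where 48.9% of all measured genes had one. Usp31 had 142 and 101 counts (10.1 and 7.21 CPM), a ratio of 0.711 (0.546 to 0.925), with 105 of 583 genes of its level as low or lower. Usp31 is on chromosome 7 from 121642021 to 121707253 (minus strand). Usp40 had 683 and 596 counts, a ratio of 0.873 (0.781 to 0.975), and overlaps Dgkd by 62 bases (425 and 390 counts). Usp38 had 251 and 243 counts. Usp43 had none in either library.

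**Figure D3:**
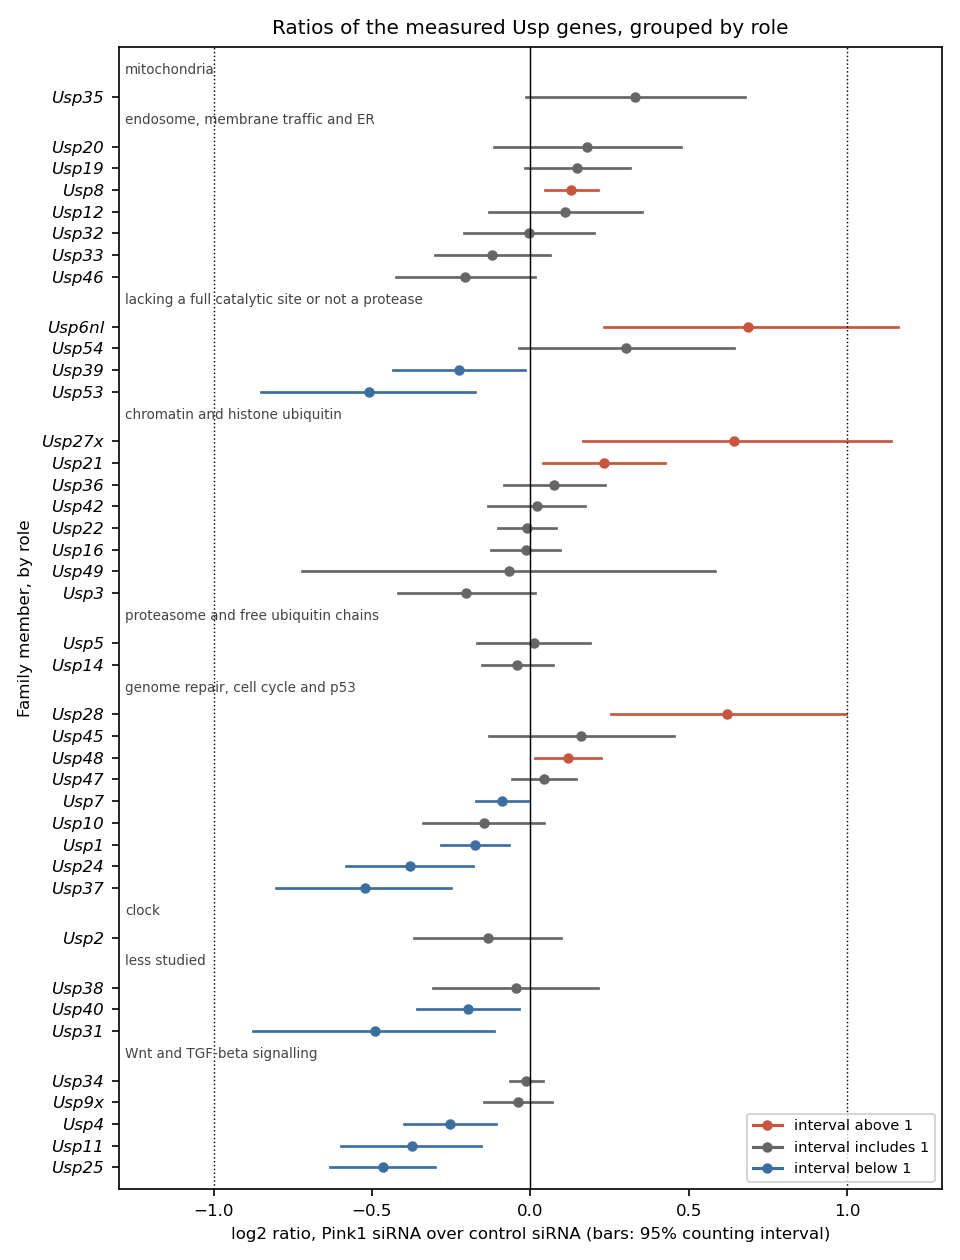
Log2 ratio, Pink1 siRNA over control siRNA, of the 40 measured Usp genes grouped by role, with bars for the 95% counting interval of the 2 counts and dotted lines at 2-fold. Points are red where the interval lies above 1 (6 genes), blue where it lies below 1 (11 genes) and grey where it includes 1 (23 genes).

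In the last group of 7 members, which are Usp26, the Y-linked Usp9y and the Usp17 genes, none was measured. Usp26, an X-linked testis gene, had 0 counts in the control library and 7 in the Pink1 siRNA library, and its counting interval began at a ratio of 1.44. Usp17la had 21 and 10 counts and Usp17le 4 and 0. Usp17lb, Usp17lc and Usp17ld had none. These Usp17 genes are near-identical copies on chromosome 7, so single counts are uncertain. Usp9y had 1 and 0 counts.

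Related members were then compared by their share of joint counts, which does not depend on how the libraries are scaled. In 12 of 14 sets of related genes the exact 95% binomial intervals of the share overlapped between the libraries, and in 2 they did not. These intervals cover counting error only, which the difference of a single gene exceeded for 51.2% of measured genes. That percentage rests on another criterion, and no such share over other gene pairs was computed. Overlap does not show equal shares, and it was fixed in advance for Usp31 with Usp43, as Usp43 had no count. Usp25 made up 87.4% (84.9 to 89.6%) of the joint Usp25 and Usp28 counts in the control library and 76.5% (73.1 to 79.7%) in the Pink1 siRNA library, so the less abundant Usp28 held more of the pair. Usp53 made up 57.6% (52.0 to 63.2%) of the Usp53 and Usp54 counts in the control library and 43.6% (37.9 to 49.6%) in the other, so the more abundant of the pair differed between the libraries. Among the 12, Usp22 held 97.0% (96.1 to 97.7%) and 95.3% (94.3 to 96.2%) of its set with Usp27x and Usp51. Usp4 held 68.3% and 70.1% of its set with Usp11, and both of these relatives had a ratio below 1. Usp5 held all 516 and 520 of 521 counts of its set with Usp13, so 1 relative alone was expressed, as with Usp31 and Usp43.

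**Figure D4:**
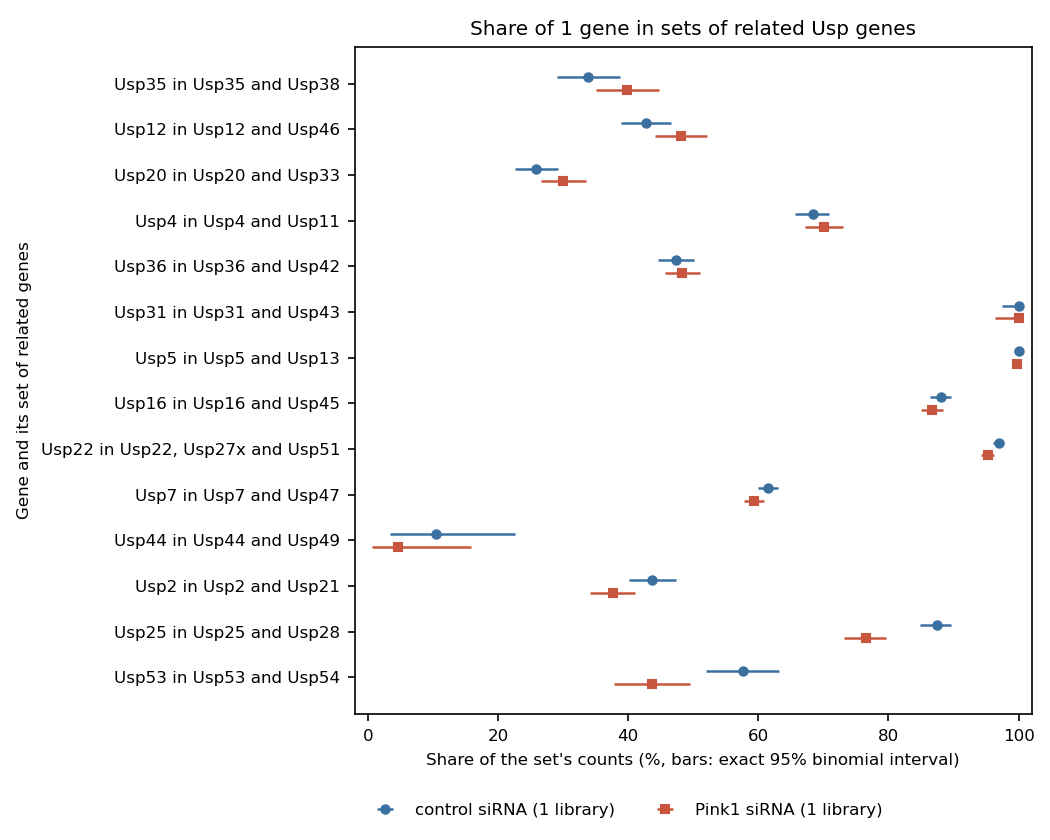
Share of the joint counts (%) taken by the first gene of 14 sets of related Usp genes in the control siRNA (circles) and Pink1 siRNA (squares) libraries, with exact 95% binomial intervals. The intervals are apart for Usp25 with Usp28 and for Usp53 with Usp54, at the bottom, and overlap in the other 12 sets.

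Usp25, the relative of Usp28, had a ratio on the other side of 1. Shown are its start region and those of the 3 members past 1.5-fold. Each is the 100 bases before the annotated start (RefSeq, GRCm38.p6, the assembly behind mm10), written 5′ to 3′ on the gene's strand, with capitals for the GC box GGGCGG on either strand. The gene spans given above are those of GENCODE, whose starts can differ from the RefSeq starts. The window of Usp25 therefore lies wholly inside the printed span, and those of Usp6nl and Usp28 lie partly inside theirs. The windows are chr9:48985285-48985384 (plus strand) for Usp28, chr16:77013969-77014068 (plus) for Usp25, chrX:7375831-7375930 (minus) for Usp27x and chr2:6322657-6322756 (plus) for Usp6nl.
Usp28: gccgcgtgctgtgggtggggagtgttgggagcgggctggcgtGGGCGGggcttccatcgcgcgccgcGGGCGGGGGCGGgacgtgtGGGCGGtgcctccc
Usp25: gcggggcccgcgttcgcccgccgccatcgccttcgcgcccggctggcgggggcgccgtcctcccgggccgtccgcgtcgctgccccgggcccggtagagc
Usp27x: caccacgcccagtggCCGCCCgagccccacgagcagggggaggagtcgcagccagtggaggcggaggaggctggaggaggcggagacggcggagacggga
Usp6nl: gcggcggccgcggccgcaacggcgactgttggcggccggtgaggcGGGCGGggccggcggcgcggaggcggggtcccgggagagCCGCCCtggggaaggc
The window of Usp28 holds 4 GC boxes, that of Usp6nl 2, that of Usp27x 1 and that of Usp25 0. None of the 4 holds a CCAAT box, a TATA box (the letters TATAAA) or an E-box (the letters CACGTG) on either strand. Usp37, Usp53 and Usp31 had lower ratios than Usp25 and are not shown, so the ends of the range are not compared.

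Over the 250 bases before the start, the GC box was present in 24 of 32 windows of measured members (75%), in 58.1% of 11280 windows of measured genes and in 32.7% of all 32841 windows. CCAAT was in 5 of the 32 windows, against 35.9% for measured genes, TATAAA in 2 (6.36%) and CACGTG in 4 (8.32%). The median count of CG pairs was 24.5 per window for measured members and 16 for measured genes. The windows cover 31 of the 40 measured members, and a match describes letters, not a bound site.

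The genes that work with the family were described in the same way. Of 10 cofactors, all measured, 0 passed the 2-fold rule, against 4.02% of all measured genes. A ratio below 1 was found for 8, where 48.9% of all measured genes had one, and the median log2 ratio was -0.18. Intervals lay below 1 for 6 of the 10, against 24.9% of all measured genes. Wdr48, the activator of Usp1, Usp12 and Usp46, had 593 and 473 counts, a ratio of 0.798 (0.705 to 0.902), and Stam2, the endosomal partner of Usp8, 676 and 505 counts, a ratio of 0.747 (0.664 to 0.84). In the SAGA module around Usp22, Atxn7 had a ratio of 0.86, Atxn7l3 0.85 and Eny2 0.895, with intervals below 1, while Usp22 was at 0.993. These 3 were named after their values were seen. The 2 cofactors with a ratio above 1 were Gmps (1.09) and G3bp1 (1.02), and their intervals included 1.

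Of 16 protein targets of members, all measured, 0 passed the rule, which 4.02% of all measured genes passed. On either side of 1 lay 8 ratios, and the median log2 ratio was 0.00. The 2 targets farthest from 1 were past 1.5-fold, as were 12.1% of all measured genes. Egfr, the growth factor receptor that Usp8 sorts, had 339 and 544 counts, a ratio of 1.60 (1.40 to 1.84). Tgfbr1, a target of Usp4, had 395 and 258, a ratio of 0.653 (0.556 to 0.766). Rps27a, which encodes ubiquitin fused to a ribosomal protein, had 10029 and 13174 counts, a ratio of 1.31 (1.28 to 1.35).

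Of 35 genes of the other deubiquitinase families 31 were measured, and 0 passed the 2-fold rule. The share over all measured genes was 4.02%, and in 31 genes a count of 0 lies near it. There were 15 ratios above 1, 16 below and a median log2 ratio of -0.02, near the -0.03 of the Usp genes. Atxn3, a Josephin protease, had the ratio farthest from 1, with 248 and 143 counts (ratio 0.577, 0.466 to 0.711). All 4 measured UCH proteases had a ratio below 1, where 48.9% of all measured genes did. Uchl4, a near copy of Uchl3 whose counts are uncertain, was at 0.724 and Bap1, a histone H2A protease, at 0.774. In the OTU family, 12 of 15 were measured with a median of 0.00. Its largest ratio was that of Tnfaip3, an inhibitor of NF-kB signalling, with 43 and 65 counts (1.51, 1.01 to 2.28), and Vcpip1 had 0.805. Among 7 JAMM metalloproteases Cops5 had 1.16 and Mysm1 0.872. Among 5 MINDY and ZUP1 genes Zufsp had 0.682 and Fam188a 1.41. Of 3 relatives with the USP fold outside the symbol rule, Uspl1 had 432 and 291 counts (0.674, 0.579 to 0.783) and Pan2, which acts in poly(A) tail removal, 235 and 170 (0.723, 0.59 to 0.885). The most abundant of the 3, Cyld, a regulator of NF-kB signalling, lay on the other side of 1 with 1067 and 1220 counts (1.14, 1.05 to 1.24), and was named after its values were seen.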

How the data were processed

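RNA of 1 control siRNA and 1 Pink1 siRNA culture was extracted with Trizol and made into libraries with a QuantSeq kit, per the labels' protocols. Reads were processed with Bowtie2, bedtools and bcl2fastq 2.20.0.422 on mm10, per the submitters' processing notes. Not given in the sources used here are the annotation, strand use and treatment of multiply mapped reads. Deposited were raw counts per symbol, a unit read from the values (whole numbers with unequal totals). No molecular identifiers are mentioned, so intervals cover counting error of reads only.

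Counts were scaled by TMM effective library sizes (edgeR 4.0.16, R 4.3.3). The log2 ratio is that of scaled counts with 0.5 added, and a gene was measured at a summed count of at least 40. Ratio intervals are exact conditional binomial (Clopper-Pearson) 95% intervals (SciPy 1.17.1), checked on simulated counts with known ratios. Genes were ranked within twentieths of mean level. Gene positions, strands and lengths are from GENCODE M21 (GRCm38), which held all 52 members. Of the listed symbols, 5 were matched by RefSeq synonym. Full values are given for the 8 highest and 8 lowest ratios, the 5 highest and lowest levels, members above 2000 summed counts, and the 2 largest ratios of each other list; some members are described more briefly. Members, lists and rules were chosen with earlier results of these data known. Alternatives were other scalings (total counts, upper quartile, DESeq2 1.42.0), another added count, other filters and folds. Some listed genes are not reported here. Protein sequences were not used here.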

Additional observations from a re-analysis of the deposited data

How the results depend on the processing

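No replicate could be left out, and no paired analysis was possible because each group has 1 library. The count of 0 members past 2-fold was the same with total-count, upper-quartile and DESeq2 scaling and with 5 added before the log. It was also 0 with a summed count of 200 (37 members measured), at 4-fold, without the interval and without Usp6nl. Those settings could return no other count, because no measured member reached 2-fold by its ratio alone. The count was 1 with no filter, for Usp26, and 3 at a ratio of 1.5. The count over all genes, 469, was 1450 with no filter, 66 at a summed count of 200, 1407 at a ratio of 1.5 and 67 at 4, since these settings test other genes or ask for other folds. The family median log2 ratio stayed between -0.07 (total counts) and -0.03 under all settings. Leaving the precursor ribosomal RNA Rn45s out of the totals gave shares of 0.26% and 0.244%. All 237 values of single members under the alternatives lay within the counting interval of the member. Little movement was possible, because the filters leave a log2 ratio unchanged. Each scaling shifts all members by nearly the same amount, -0.04 with total counts. The ratios of Usp5 (total counts and upper quartile) and Usp42 (total counts), which were near 1, moved to the other side of it. Depth limits the members below 10 CPM most.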
